A study of Homo sapiens with 6 samples.

Results

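The respiratory chain subunits were 102 genes of the 35322 symbols counted in RNA-seq of 22Rv1 cells, chosen by symbol alone and not by their values. The nuclear-encoded subunits were 89 genes whose symbols begin with NDUFA (without the NDUFAF assembly factors), NDUFB, NDUFC, NDUFS, NDUFV, UQCR, COX4 to COX8 or ATP5, together with SDHA, SDHB, SDHC, SDHD and CYC1. The mitochondrially encoded subunits were 13 genes, comprising ND1 to ND6, ND4L, CYTB, COX1 to COX3, ATP6 and ATP8. By symbol, 39 nuclear and 7 mitochondrial genes belong to complex I, 4 nuclear genes to complex II, 10 and 1 to complex III, 17 and 3 to complex IV, and 19 and 2 to complex V. Of the symbols that matched, 69 pseudogenes were dropped, none with more than 15 counts in any library, and 8 antisense, divergent or readthrough symbols were kept apart from the subunits.

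22Rv1 is an established line of human prostate cancer cells. The study sequenced RNA of untreated 22Rv1 cells in 6 libraries, 2 of control cells that the labels give as wild type and 2 from each of 2 knockdowns of the chromatin reader ZMYND11, called kd1 and kd2 here. A figure legend of the study speaks of stable ZMYND11-targeting or control shRNAs, whereas the labels name no shRNA, and it is thus not settled if a vector was present in the controls or which shRNA each knockdown carried. The labels do not say whether libraries of a group came from separate cultures, and the p-values then measure only the spread between these libraries, which may be technical.

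The respiratory chain sits in the inner mitochondrial membrane. Complex I takes electrons from NADH and complex II from succinate, complex III passes them from ubiquinol to cytochrome c, and complex IV passes them to oxygen. Protons pumped on the way drive ATP synthesis by complex V. Most subunits are encoded in the nucleus, and a small set of hydrophobic core subunits of all complexes but complex II is encoded in the mitochondrial DNA and read from long transcripts of both strands that are then cut into single messages.

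The libraries held between 26844128 and 38193748 counts. Levels are given as CPM, the counts of a gene scaled to a common library size after TMM normalization, and differences as log2 fold changes with their standard error (SE). Genes were called higher or lower at an adjusted p under 0.05 in edgeR's quasi-likelihood test, with Benjamini-Hochberg adjustment over the 16510 genes tested. The targeted gene stood at 141 and 135 CPM in the control libraries, 27.7 and 26.1 in kd1 and 21.5 and 22.7 in kd2. Of 10 prostate epithelial markers, 9 were above 10 CPM in every library, and their sum ran from 3170 to 3210 CPM in control cells, 4170 to 4210 in kd1 and stood at 4530 in kd2. The sum of 6 fibroblast markers, of which 1 was above 10 CPM in every library, was 33.2 to 35.9 CPM in control cells, 86.6 to 87.2 in kd1 and 44.3 to 44.7 in kd2, and the part of such cells in the results below was not tested. Leukocyte markers summed to at most 4.11 CPM, with CD3E at 0 throughout, and endothelial markers to at most 0.196, with KDR at 0. In bulk RNA, fewer cells of a type and less RNA per cell cannot be told apart.

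Nuclear-encoded subunits were mostly higher in kd1 than in control cells in each of the 5 complexes, and less so in kd2. Complex II, with 4 genes, did not keep this in kd1 after a correction for GC content and transcript length (2 higher and 2 lower, median 0.09). Mitochondrially encoded subunits moved unevenly, with most higher in kd1 and most lower in kd2. Of the nuclear genes, 84 had enough counts to be tested, and all 13 mitochondrial genes were tested. In kd1, 73 of the 84 nuclear genes were called higher and 4 lower, with a median log2 fold change of 1.28, while 38.2% of all genes tested were called higher and 39.8% lower, with a median of -0.03. In kd2, 51 nuclear genes were called higher and 12 lower, with a median of 0.38, beside 36.5% and 36.9% of all genes and a median of -0.03. The mitochondrial genes gave 9 higher and 3 lower in kd1, with a median of 0.71, and 2 higher and 8 lower in kd2, with a median of -0.20. Both comparisons use the same control libraries, so they are set side by side and not counted as independent.

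The size of these differences depended on how the libraries were scaled. Scaling by library totals alone moved the median of all genes to -0.38 in kd1 and -0.20 in kd2. It gave 68 nuclear genes higher and 9 lower in kd1 and 40 higher and 18 lower in kd2, with 8 mitochondrial genes higher and 4 lower in the first and 0 higher and 10 lower in the second by edgeR. Of all genes, this scaling called 27.8% higher and 51.0% lower in kd1 and 30.1% and 43.7% in kd2. A correction for GC content and transcript length gave 61 nuclear genes higher and 13 lower in kd1 and 48 and 16 in kd2, and 6 mitochondrial genes higher and 5 lower in the first and 0 and 11 in the second. With the correction, 39.4% of all genes were called higher and 37.9% lower in kd1, and 38.5% and 36.2% in kd2. The 0 also held at an unadjusted p under 0.05 under both, whereas the DESeq2 Wald test, which scales by size factors, called 2 mitochondrial genes higher in kd2. The nuclear median stayed above 0 in both knockdowns under both, while the mitochondrial median in kd1 came to 0.08 with the correction.

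Shares of the raw counts rest on library totals, as the first of these alternatives does, and ratios between genes of a library on no scaling. Mitochondrially encoded subunits took 8.73% and 8.87% of all counts in the control libraries, 10.1% and 9.88% in kd1 and 6.15% and 6.24% in kd2. The groups did not overlap, with kd1 above control cells and kd2 below. The nuclear-encoded subunits together took 1.0% and 1.03% of counts in control cells, 1.75% and 1.83% in kd1 and 1.2% and 1.07% in kd2, so that all knockdown libraries lay above both controls. For each count on a nuclear subunit there were 8.7 and 8.6 mitochondrial counts in control cells, 5.78 and 5.39 in kd1 and 5.14 and 5.81 in kd2. This ratio was lower in each knockdown library than in either control, and the knockdowns overlapped. With 2 libraries a group, no exact permutation test of a single share between 2 groups could reach p under 0.05, and the shares were not tested.

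**Figure D1:**
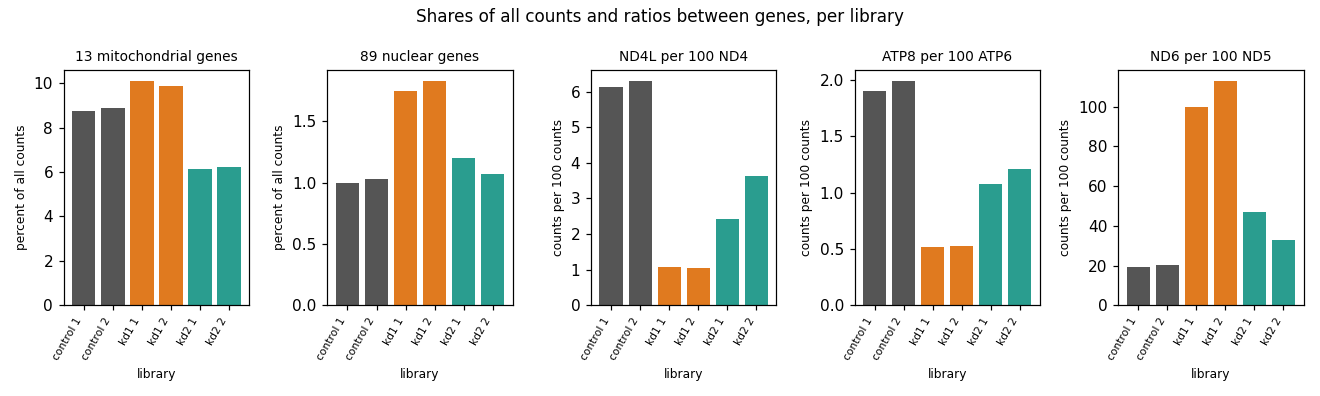
Shares of all counts, and ratios between neighbouring mitochondrial genes, in each of the 6 libraries, as bars from 0 (left to right: percent of counts on the 13 mitochondrial genes, percent on the 89 nuclear genes, and ND4L per 100 counts of ND4, ATP8 per 100 of ATP6 and ND6 per 100 of ND5). The mitochondrial share was highest in kd1 (9.88% to 10.1%) and lowest in kd2 (6.15% to 6.24%), while the nuclear share was at least 1.07% in all knockdown libraries and at most 1.03% in control cells.

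Per kilobase of transcript, the mitochondrial genes stood far above the nuclear ones. The median was 66.9 CPM per kb over the 89 nuclear genes in control cells, 161 in kd1 and 83.5 in kd2, against 4190, 6860 and 3520 CPM per kb over the mitochondrial genes. In control cells ATP5F1B, the catalytic beta subunit of ATP synthase, was the highest nuclear gene at 755 CPM per kb, whereas in kd1 COX4I1, a structural subunit of cytochrome c oxidase, was highest at 1720. COX1 led the mitochondrial genes in control cells at 16200 CPM per kb and COX2 in kd1 at 32100 and in kd2 at 14200.

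**Figure D2:**
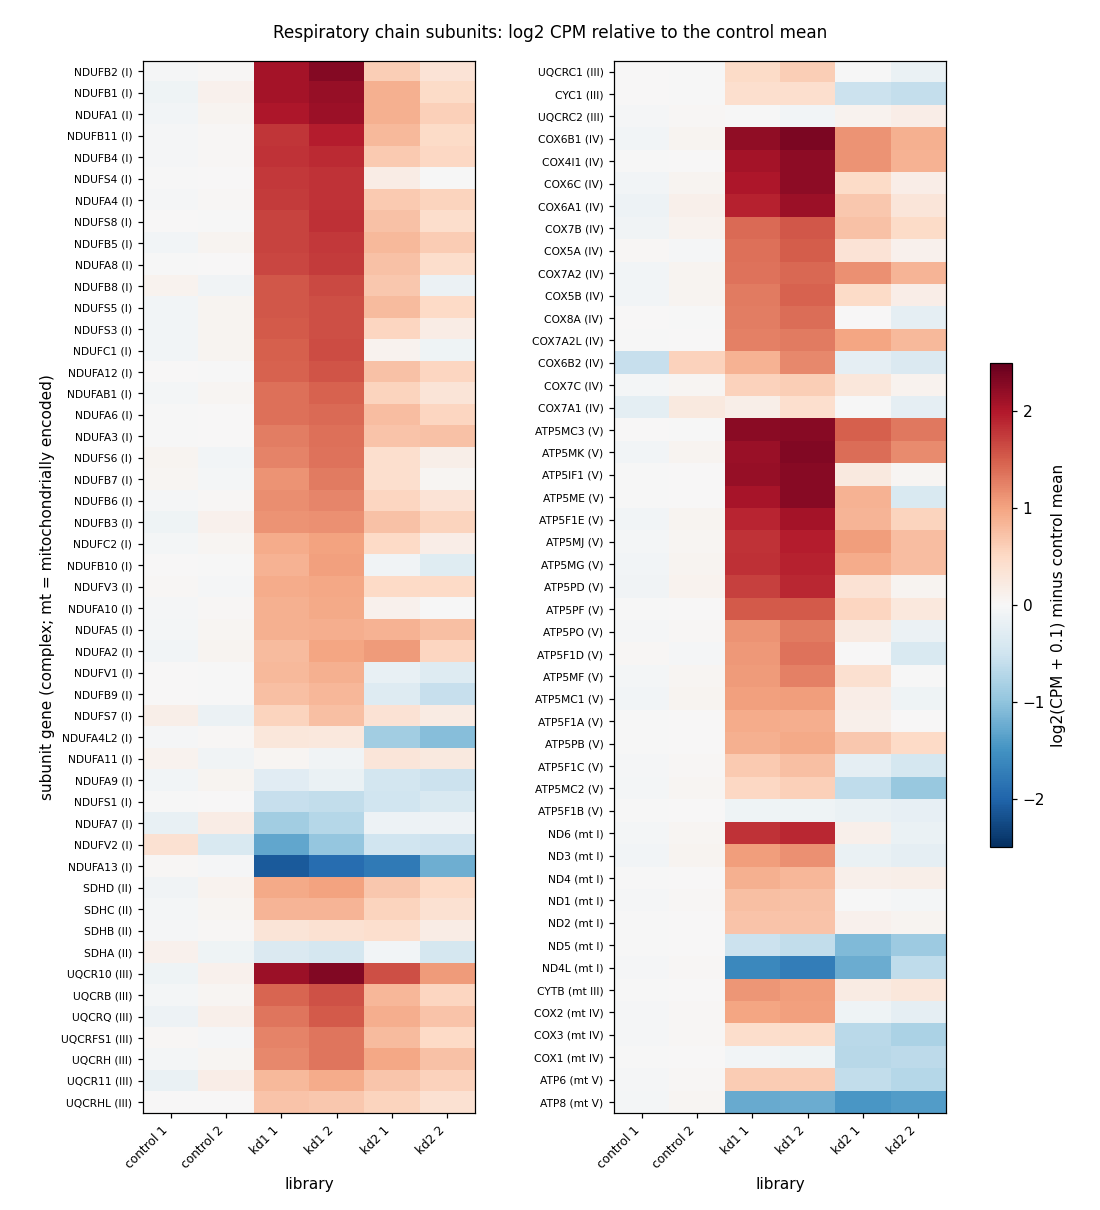
Level of 96 of the 97 tested subunits in the 6 libraries, as log2(CPM + 0.1) minus the mean of the control libraries (colour, blue lower and red higher), grouped by nuclear or mitochondrial origin and by complex. Red prevails over nuclear genes in kd1 (73 called higher of 84), is paler in kd2 (51 of 84), and the mitochondrial genes at the foot of the right column are mixed.

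Complex I held the largest set and most of the exceptions. Of its 39 nuclear genes, 33 were called higher and 4 lower in kd1, with a median log2 fold change of 1.21, and 23 higher and 8 lower in kd2, with a median of 0.36, beside 38.2% of all genes called higher in kd1 and 36.5% in kd2. With library totals alone the kd1 calls were 30 higher and 6 lower, with a median of 0.86, and the kd2 calls 19 and 11, with 0.19. After the correction they were 28 and 6, with 0.74, and 23 and 9, with 0.24. The highest mean rises among genes called in both knockdowns were those of 2 small accessory subunits of the membrane arm. NDUFA1 was at 87.2 and 94.7 CPM in control cells, 368 and 403 in kd1 and 169 and 137 in kd2. NDUFB1 went from 47.2 and 54.3 CPM in control cells to 213 and 229 in kd1 and 94.2 and 70.3 in kd2. For both genes the 3 groups did not overlap, with kd1 highest. Their log2 fold changes were 2.08 (SE 0.09) and 0.75 (SE 0.08) for NDUFA1, and 2.12 (SE 0.11) and 0.70 (SE 0.11) for NDUFB1, with edgeR adjusted p of at most 3.94e-05.

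The nuclear-encoded core subunits, which carry the flavin and iron-sulfur clusters that pass electrons from NADH, did not move together. NDUFS3 and NDUFS8 rose by 1.57 (SE 0.09) and 1.77 (SE 0.08) in kd1 and by 0.36 and 0.59 in kd2, the 0.36 of NDUFS3 not being called with library totals alone (0.19). NDUFS1, the largest subunit of the complex, was at 113 and 115 CPM in control cells, 76.9 and 74.5 in kd1 and 81.0 and 87.5 in kd2. It was called lower in both knockdowns, by -0.59 (SE 0.06, edgeR adjusted p = 3.15e-07) and -0.44 (SE 0.06, 9.2e-06), but stood at 0.28 and 0.00 after the GC and length correction. NDUFV1, which binds NADH, was at 196 and 191 CPM in control cells, 341 and 357 in kd1 and 169 and 155 in kd2, higher in the first and lower in the second.

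Some core genes had few counts. NDUFS7 held 109 to 198 counts a library and was called higher in kd1 (0.66, SE 0.17), with 0.31, not called, with library totals alone and -0.54 after the correction. NDUFV2 held 99 and 58 counts in control cells and 32 and 36 in kd1, and its call lower (-1.25, SE 0.32) was lost without the first control library (-0.80). NDUFA13, an accessory subunit also studied as a cell death regulator, had the largest fall of all nuclear subunits in both knockdowns. It was at 9.86 and 9.43 CPM in control cells, 2.18 and 2.5 in kd1 and 2.77 and 4.09 in kd2, with log2 fold changes of -2.05 (SE 0.19, edgeR adjusted p = 1.71e-07) and -1.49 (SE 0.18, 3.29e-06). The 4 nuclear subunits called lower in kd1 were NDUFA13, NDUFV2, NDUFA7 and NDUFS1, whose annotated exons share 21.0%, 28.4%, 32.5% and 3.2% of bases with another gene on the same strand. The call of NDUFA7 in kd1 (-0.85, SE 0.27) was lost without the first kd1 library (-0.77) or the second control library (-0.65), and with all libraries by the DESeq2 Wald test (-0.85, adjusted p = 0.0554). How reads over shared bases were counted is not given in the sources used here, and its part in these levels was not tested.

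In complex II, which has no mitochondrially encoded subunit, changes were smaller, with 3 of 4 genes called higher in each knockdown and medians of 0.60 and 0.38. In kd1 this became 2 higher and 1 lower with library totals alone, with a median of 0.24, and 2 and 2 after the correction, with a median of 0.09. In kd2 the medians became 0.21 and 0.23, with 2 and 3 genes higher. All genes tested gave 38.2% higher and 39.8% lower in kd1 and 36.5% and 36.9% in kd2. With library totals alone these were 27.8% and 51.0%, and 30.1% and 43.7%, and after the correction 39.4% and 37.9%, and 38.5% and 36.2%. Both membrane anchors rose. SDHC was at 167 and 181 CPM in control cells, 312 and 315 in kd1 and 255 and 225 in kd2, and its log2 fold changes were 0.85 (SE 0.06) and 0.46 (SE 0.06). SDHD rose by 0.99 (SE 0.07) and 0.59 (SE 0.07). SDHB, the iron-sulfur subunit, was called higher by 0.35 (SE 0.07) and 0.31 (SE 0.07), but in kd1 it stood at -0.01 with library totals alone and at -0.23 after the correction, and in kd2 the call was lost with library totals (0.14). SDHA, the flavoprotein subunit, held 84 to 133 counts a library and shares 21.7% of its exon bases with another gene on the same strand. It was not called in either knockdown at -0.42 (SE 0.20) and -0.25 (SE 0.20), but was called lower in kd1 with library totals alone (-0.77) and after the correction (-0.49).

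In complex III, 9 of 10 nuclear genes were called higher in kd1, with a median of 1.07, and 8 higher and 1 lower in kd2, with a median of 0.64. These counts became 8 and 1, then 6 and 2, with library totals alone, and 7 and 2 in each knockdown after the correction. The kd1 median was 0.71 in both. The shares of all genes were 38.2% higher and 39.8% lower in kd1 and 36.5% and 36.9% in kd2. They became 27.8% and 51.0%, and 30.1% and 43.7%, with library totals alone, and 39.4% and 37.9%, and 38.5% and 36.2%, after the correction. UQCR10, a small subunit next to cytochrome c1, was at 9.76 and 11.4 CPM in control cells, 47.0 and 53.0 in kd1 and 32.6 and 22.2 in kd2, a log2 fold change of 2.24 (SE 0.15) and 1.38 (SE 0.15). UQCRQ, the ubiquinone-binding protein, rose by 1.43 (SE 0.09) and 0.82 (SE 0.09). The catalytic genes differed from each other. UQCRFS1, the Rieske iron-sulfur protein, rose by 1.30 (SE 0.08) and 0.65 (SE 0.08). CYC1, cytochrome c1, was at 219 and 215 CPM in control cells, 290 and 289 in kd1 and 150 and 144 in kd2, and so lay above the controls in one knockdown and below them in the other. Its difference in kd1 was 0.42 (SE 0.05), but -0.45 after the correction and 0.06, not called, with library totals alone. Its fall in kd2 was -0.56 (SE 0.05, edgeR adjusted p = 1.46e-07).

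UQCRC1 and UQCRC2 are the large core proteins on the matrix side of complex III. UQCRC1 was called higher by 0.55 (SE 0.06) in kd1 and stood at 0.00 after the correction. In kd2 it was not called at -0.09 (SE 0.06), but was called lower with library totals alone (-0.26), after the correction (-0.12) and without the first kd2 library (-0.17). UQCRC2 was at 144 and 152 CPM in control cells, 147 and 142 in kd1 and 158 and 167 in kd2, and the first pair overlapped the controls. Its -0.04 in kd1 was called lower with library totals alone (-0.39) and after the correction (-0.28). It was called higher in kd2 by 0.13 (SE 0.06, edgeR adjusted p = 0.041), a call that was lost when any library but the first of kd2 was left out (adjusted p up to 0.307), by the DESeq2 Wald test (0.14), with at least 10 counts in every library (0.09) and with only the groups compared (0.12), and its value was -0.04 with library totals alone and -0.02 after the correction.

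Complex IV had the largest single rise. Of its 13 tested nuclear genes, 11 were called higher in kd1 and 10 in kd2, the others not being called, with medians of 1.40 and 0.34. In kd2 this became 6 higher and 1 lower with library totals alone and 7 and 1 after the correction, with medians of 0.17 and 0.16. After the correction the kd1 counts were 10 and 1, with a median of 0.92. Beside these counts, 38.2% of all genes were called higher and 39.8% lower in kd1, and 36.5% and 36.9% in kd2. The kd2 shares were 30.1% and 43.7% with library totals alone. After the correction the shares were 39.4% and 37.9% in kd1 and 38.5% and 36.2% in kd2. COX6B1, which links the monomers of the enzyme on its outer face, was at 93.8 and 104 CPM in control cells, 462 and 504 in kd1 and 215 and 184 in kd2. Its log2 fold changes were 2.29 (SE 0.08, edgeR adjusted p = 3.35e-12) and 1.01 (SE 0.08, 2.23e-08). COX4I1 was at 291 and 298 CPM in control cells, 1250 and 1380 in kd1 and 643 and 541 in kd2, with 2.16 (SE 0.08) and 1.01 (SE 0.07). Neither gene had overlapping groups.

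The tissue-specific isoforms of complex IV subunits had few counts or 0. COX4I2 had 1 count in all libraries together, and COX6A2, COX7B2 and COX8C had 0, so these were not tested. COX6B2 had 8 to 34 counts a library and COX7A1 had 6 to 11, and neither was called against control, although COX6B2 was called higher in kd1 without the second control library (1.93, from 1.05) and with only the groups compared (1.05). Their widely expressed partners COX6A1, COX7A2, COX7B and COX8A rose by 2.03 (SE 0.11), 1.40 (SE 0.08), 1.48 (SE 0.08) and 1.34 (SE 0.08) in kd1. In kd2 the first 3 rose by 0.50, 0.99 and 0.61, and COX8A stood at -0.10 (SE 0.09) and was not called, except as lower with library totals alone (-0.28) or without the first kd2 library (-0.23). NDUFA4, named for complex I but known as a subunit of complex IV, rose by 1.78 (SE 0.06) and 0.61 (SE 0.05). Its paralog NDUFA4L2, known as a hypoxia-induced gene, was at 32.6 and 33.9 CPM in control cells, 40.6 and 40.2 in kd1 and 18.2 and 15.8 in kd2. It was lower in kd2 by -0.97 (SE 0.08), and its call higher in kd1 (0.28, SE 0.08) turned to -0.07 with library totals alone and to -0.72 after the correction, and was lost without the first control library (0.25).

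In complex V, 17 of 18 tested nuclear genes were called higher in kd1, with a median of 1.39, while kd2 had 7 higher and 3 lower, a share called higher close to the 36.5% of all genes, with a median of 0.22 (7 and 4, with 0.05, with library totals alone). After the correction the kd1 counts were 14 higher and 2 lower. In kd1, 38.2% of all genes were called higher and 39.8% lower before the correction, and 39.4% and 37.9% after it. In kd2, 36.9% were called lower, and library totals alone gave 30.1% higher and 43.7% lower. The catalytic hexamer differed within itself. ATP5F1A, the alpha subunit, was at 568 and 569 CPM in control cells, 1080 and 1070 in kd1 and 624 and 574 in kd2, called higher in the first (0.92, SE 0.05) and not in the second (0.08, SE 0.05, called at 0.28 after the correction and at 0.14 without the second kd2 library). ATP5F1B, the beta subunit, was at 1320 and 1340 CPM in control cells, 1240 and 1230 in kd1 and 1190 and 1150 in kd2. It was the only tested nuclear subunit of complex V without a call in kd1 (-0.10, SE 0.05), and it was called lower there with library totals alone (-0.46), after the correction (-0.39), with at least 10 counts in every library (-0.15), with no filter, with only the groups compared and without either kd2 library (-0.11 to -0.10 in these). In kd2 it was called lower (-0.18, SE 0.05), a call lost without the second control library (-0.17). ATP5F1C, the gamma subunit of the rotor, rose by 0.69 (SE 0.07) in kd1, to 0.07 and not called after the correction, and fell by 0.33 (SE 0.07) in kd2.

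ATP5MC1, ATP5MC2 and ATP5MC3 encode the same mature subunit c of the membrane rotor, and they moved apart. ATP5MC3 was at 47.4 and 46.6 CPM in control cells, 226 and 228 in kd1 and 132 and 118 in kd2, the largest rise of a nuclear subunit in kd2 at 1.41 (SE 0.06, edgeR adjusted p = 7.33e-11), after 2.27 (SE 0.06, 4.29e-13) in kd1. ATP5MC2 was at 181 and 196 CPM in control cells, 269 and 285 in kd1 and 122 and 98.0 in kd2, with 0.55 (SE 0.08), which became -0.24 after the correction, and -0.78 (SE 0.08). ATP5MC1 rose by 1.04 (SE 0.08) in kd1 and stood at 0.03 (SE 0.08) in kd2, which was called at 0.16 without the second kd2 library. Per kilobase, ATP5MC2 remained the highest of these genes and ATP5MC3 the lowest, at 298 and 18.2 CPM per kb in control cells and 174 and 48.2 in kd2. ATP5MK, a small accessory subunit, rose by 2.24 (SE 0.08) and 1.30 (SE 0.08). ATP5IF1, the inhibitor of the synthase's reverse reaction, was at 93.7 and 94.6 CPM in control cells, 428 and 456 in kd1 and 112 and 97.4 in kd2, with 2.23 (SE 0.07, edgeR adjusted p = 9.71e-13) in the first and 0.15 (SE 0.07, 0.0503) in the second, which was called at 0.25 without the second kd2 library.

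**Figure D3:**
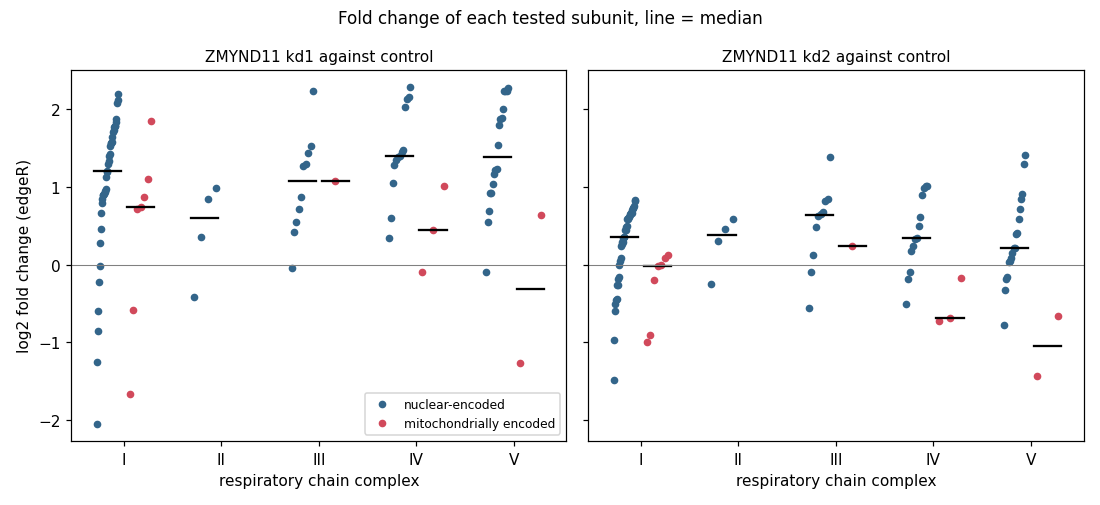
Log2 fold change against control (vertical axis, edgeR) of each tested subunit by complex (horizontal axis), nuclear-encoded in blue and mitochondrially encoded in red, with black lines for medians, in kd1 (left) and kd2 (right). Nuclear medians in kd1 ran from 0.60 in complex II to 1.40 in complex IV and in kd2 from 0.22 in complex V to 0.64 in complex III, before the alternatives, under which complex II in kd1 came to 0.24 with library totals alone and 0.09 after the correction.

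The mitochondrially encoded genes differed among themselves, and a scaling between libraries, which shifts all genes of a library alike, leaves such differences as they are. COX1, the catalytic subunit of cytochrome c oxidase, was at 24900 and 25100 CPM in control cells, 23700 and 23200 in kd1 and 15400 and 15800 in kd2. Its neighbour COX2, which holds the first copper site, was at 10700 and 11100, 21700 and 22200, and 10100 and 9340 CPM. COX1 stood at -0.09 (SE 0.05) in kd1 where COX2 rose by 1.01 (SE 0.05). COX1 was not called there, but was called lower with library totals alone (-0.44), after the correction (-0.40), with at least 10 counts in every library (-0.13), with no filter, with only the groups compared and without either kd2 library (-0.09 to -0.08 in these). For each 100 counts on COX2 there were 232 and 226 on COX1 in control cells, 110 and 104 in kd1 and 153 and 169 in kd2. COX1 made up 32.3% and 31.8% of the mitochondrial subunit counts in control cells, 20.9% and 20.6% in kd1 and 24.8% and 25.6% in kd2. In kd2 COX2 was called lower (-0.17, SE 0.05), a call lost without the second control library (-0.14).

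COX3 and ATP6 were higher in kd1 and lower in kd2. COX3 was at 10200 and 10600 CPM in control cells, 14100 and 14300 in kd1 and 6560 and 6030 in kd2. Its 0.45 (SE 0.05) in kd1 became -0.18 after the correction and 0.09, not called, with library totals alone, while its -0.73 (SE 0.05) in kd2 was called under each. ATP6, the proton channel subunit of ATP synthase, was at 2810 and 2890 CPM, 4450 and 4420, and 1870 and 1730, with 0.64 (SE 0.05), which became -0.04 after the correction, and -0.66 (SE 0.05). CYTB, the mitochondrial subunit of complex III, rose by 1.08 (SE 0.05) in kd1 and by 0.24 (SE 0.05) in kd2, the latter not called with library totals alone (0.07) or after the correction (0.10).

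Of the mitochondrial complex I genes, which form its proton-pumping membrane arm, 5 of 7 were called higher and 2 lower in kd1. Their median was 0.74, beside 38.2% of all genes called higher and 39.8% lower. After the correction 4 were higher and 2 lower, with a median of 0.14, beside 39.4% and 37.9% of all genes. In kd1 before the correction, ND1, ND2, ND3 and ND4 rose by 0.74, 0.71, 1.10 and 0.87 (SE 0.05 to 0.06). After it ND2 stood at 0.08 and was not called. In kd2 ND1 and ND2 were not called (-0.02 and 0.09), although ND1 was called lower with library totals alone and after the correction (-0.19 in each) and ND2 was called higher without the second kd2 library (0.12) and with no filter (0.09) and lower after the correction (-0.15). ND3 was called lower there (-0.20, SE 0.06), which was lost without the second control library (-0.14). ND4 was called higher there (0.13, SE 0.05, edgeR adjusted p = 0.0245), but stood at -0.04 with library totals alone and -0.01 after the correction, and lost the call without either control library (adjusted p up to 0.204), with at least 10 counts in every library (0.09, adjusted p = 0.141) and with only the groups compared (0.12, adjusted p = 0.0642).

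ND5 and ND6 lie next to each other on opposite strands, and ND6 is the one subunit gene of the strand that otherwise encodes only tRNAs. ND5 was at 4090 and 4160 CPM in control cells, 2850 and 2690 in kd1 and 1910 and 2210 in kd2, lower by -0.58 (SE 0.06) and -1.0 (SE 0.06). ND6 was at 788 and 850 CPM in control cells, 2860 and 3030 in kd1 and 894 and 728 in kd2. Its rise of 1.85 (SE 0.08, edgeR adjusted p = 3.36e-11) in kd1 was the largest of the mitochondrial genes, and in kd2 the libraries enclosed the controls, with -0.01 (SE 0.08) and no call. It was called higher there without the second kd2 library (0.13), and lower with library totals alone (-0.19), after the correction (-0.21) and without the first kd2 library (-0.17). Per 100 counts on ND5 there were 19.3 and 20.4 on ND6 in control cells, 100 and 113 in kd1 and 46.9 and 32.9 in kd2. Whether reads were counted by strand is not given in the sources used here. Without strand, reads from ND6 and from transcripts of the opposite strand over it cannot be told apart.

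ATP8 and ND4L are each carried on 1 message with a longer partner, ATP6 and ND4, whose reading frame they overlap. Their reference sequences are shown because both genes fell in kd1 where the partner on the same message rose before the GC and length correction, and because reads over the shared bases can fall to either gene or to none. The coordinates and letters are those of the GRCh38 mitochondrial sequence, with the bases shared with the partner in capitals, 46 for ATP8 and 7 for ND4L.
ATP8, chrM:8366-8572, plus strand: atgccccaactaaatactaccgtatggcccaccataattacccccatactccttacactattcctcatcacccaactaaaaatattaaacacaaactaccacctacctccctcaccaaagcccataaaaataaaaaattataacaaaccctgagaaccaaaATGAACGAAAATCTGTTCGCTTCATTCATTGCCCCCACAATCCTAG
ND4L, chrM:10470-10766, plus strand: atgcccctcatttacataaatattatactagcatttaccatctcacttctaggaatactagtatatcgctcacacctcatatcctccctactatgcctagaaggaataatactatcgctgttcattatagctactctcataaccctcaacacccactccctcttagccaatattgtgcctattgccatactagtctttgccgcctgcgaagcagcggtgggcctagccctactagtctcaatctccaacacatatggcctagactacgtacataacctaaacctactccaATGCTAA

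ATP8 was at 53.4 and 57.4 CPM in control cells, 23.0 and 23.4 in kd1 and 20.2 and 21.0 in kd2, with log2 fold changes of -1.26 (SE 0.07, edgeR adjusted p = 9.27e-10) and -1.43 (SE 0.07, 3.97e-10). ND4L was at 497 and 523 CPM in control cells, 166 and 154 in kd1 and 215 and 327 in kd2, with -1.67 (SE 0.13, edgeR adjusted p = 2e-08) and -0.91 (SE 0.13, 1.41e-05). Neither gene's knockdown libraries overlapped the controls, although ND4L differed more between the kd2 libraries than any other mitochondrial gene did within a group. Per 100 counts of ATP6 there were 1.9 and 1.99 of ATP8 in control cells, 0.518 and 0.53 in kd1 and 1.08 and 1.21 in kd2. Per 100 counts of ND4 there were 6.13 and 6.3 of ND4L, then 1.09 and 1.05, then 2.41 and 3.62. Both ratios were lowest in kd1. ATP8 had the lowest level of the mitochondrial genes per kilobase in each group, 268 CPM per kb in control cells beside 4190 for ATP6. How the counting treated reads that overlap 2 genes, or fragments longer than so short a gene, is not given in the sources used here, and its part in these values was not tested.

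**Figure D4:**
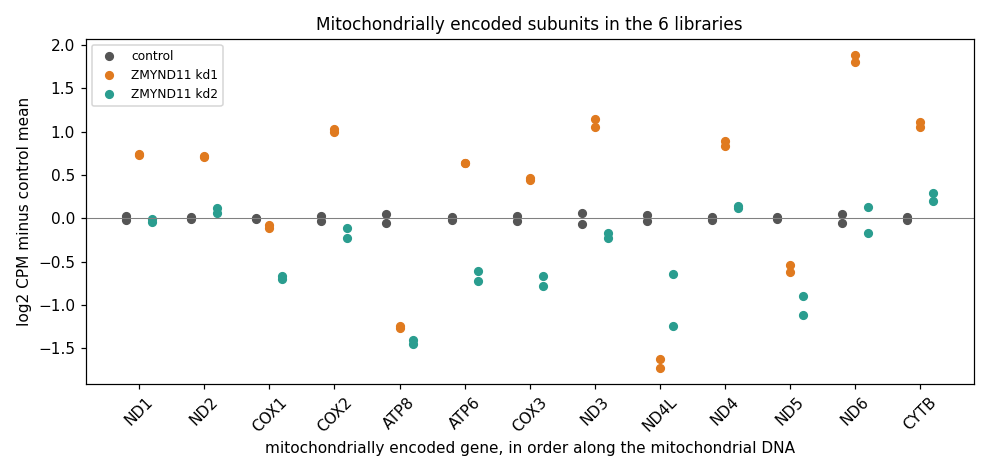
Log2 CPM minus the control mean (vertical axis) of the 13 mitochondrially encoded genes in their order along the mitochondrial DNA (horizontal axis), 1 point per library, for control (grey), kd1 (orange) and kd2 (green). ATP8, ND4L and ND5 lie below 0 in all knockdown libraries, and ND6 lies highest in kd1 (log2 fold change 1.85).

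Compared with each other, the knockdowns differed more than their replicates for most subunits. In kd2 against kd1, 69 of 84 nuclear genes were called lower and 4 higher, with a median log2 fold change of -0.95, beside 33.8% lower and 34.9% higher of all genes tested and a median of 0.02. The mitochondrial genes gave 11 lower and 1 higher, with a median of -0.76. After the correction 63 nuclear genes were lower and 9 higher, with a median of -0.48, and 12 mitochondrial genes lower and 1 higher, with a median of -0.45. With library totals alone the nuclear counts were 68 and 7 and the medians -0.77 and -0.58. The largest fall was that of ATP5IF1 at -2.08 (SE 0.07, edgeR adjusted p = 9.04e-12). Among the nuclear genes, the largest rise was that of NDUFA7 at 0.70 (SE 0.27, edgeR adjusted p = 0.0304). It rested on 40 to 74 counts a library in the knockdowns, and the call was lost when any of the 4 knockdown libraries was left out. ND4L was the mitochondrial gene that was higher in kd2, at 0.76 (SE 0.13). ATP8 did not pass the test between the knockdowns (-0.18, SE 0.08, edgeR adjusted p = 0.06), and did at -0.28 after the correction.

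The second kd2 library read lower than the first in 79 of the 84 nuclear genes, with a median log2 ratio of -0.23. The other groups leaned the other way. The second library read lower in 21 of the 84 genes in control cells and in 9 in kd1, with medians of 0.07 and 0.10. The mitochondrial genes showed no such offset in kd2, with a median of -0.03. Without the second kd2 library the nuclear median against control was 0.54, and without the first it was 0.22.

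Nuclear subunits with short transcripts stood further above control in kd1 before the GC and length correction. The correction subtracts each library's trend with length over all genes. The loss of this difference after it is therefore largely set in advance and is not a test. Across the 84 nuclear subunits the Spearman correlation of the log2 fold change with the length of the canonical transcript was -0.27 in kd1 and -0.06 in kd2, and across 15963 tested genes with a length it was -0.32 and -0.12. Genes share libraries and are not independent replicates, so these are descriptions. The median canonical transcript of the subunits had 760.5 bases, against 3118 over those genes. Of the subunits with transcripts under 1000 bases, a limit chosen after the values were seen, 45 of 50 were called higher in kd1 and 3 lower, with a median of 1.41, and of those at or above it 28 of 34 and 1 lower, with a median of 0.93, beside 38.2% of all genes called higher and 39.8% lower. After the GC and length correction 36 were higher and 8 lower of the first and 25 and 5 of the second, and the medians were 0.76 and 0.82.

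Nuclear subunits were also split by whether their exons overlap another gene on the same strand. Of the 57 tested nuclear genes that share no exon base with another gene on the same strand, 54 were called higher and the other 3 not called in kd1 (49 higher and 2 lower with library totals alone, 42 and 6 after the correction), and 39 higher and 7 lower in kd2 (31 and 10, then 38 and 10). Of the 27 that share some, 19 were higher and 4 lower in the first (19 and 7 in either alternative) and 12 and 5 in the second (9 and 8 with library totals alone, 10 and 6 after the correction). Of all genes, 38.2% were called higher and 39.8% lower in kd1 and 36.5% and 36.9% in kd2. The medians were 1.30 and 1.05 in kd1 (0.85 and 0.52 after the correction) and 0.46 and 0.21 in kd2 (0.29 and 0.04 with library totals alone).

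Promoters of nuclear subunits were searched for the motifs of 3 factors known for binding respiratory genes. The windows, from RefSeq on GRCh38.p14, run from 250 bases before to 50 after each start, and 70 of the 89 nuclear genes had one, in 83 windows. The NRF1 motif GCGCATGC, read on both strands, was in the window of 14 genes and in 18.1% of the 83 windows, against 3.05% of all 35116 windows. The ETS motif CCGGAAGT was found for 12 genes and in 14.5% of windows against 4.14%, and the YY1 motif AAGATGGCG for 9 genes and in 12% against 1.75%. No motif contains another, and 28 genes held at least 1 of them. The median log2 fold change in kd1 was 1.34 with the NRF1 motif and 1.30 without it, 1.30 and 1.30 for the ETS motif, and 0.66 and 1.32 for the YY1 motif. In kd2 these medians were 0.41 and 0.44, 0.37 and 0.44, and 0.29 and 0.49. A match is a description of letters and not a bound site.

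Windows of 5 subunits are shown, with motif matches in capitals, 4 of genes that were called higher in both knockdowns and NDUFS1 as the contrast. COX5B and COX6A1 hold NRF1 matches, NDUFA6 an NRF1 and a YY1 match, and ATP5MK and NDUFS1 an ETS match each.
COX5B, chr2:97645812-97646111, plus strand: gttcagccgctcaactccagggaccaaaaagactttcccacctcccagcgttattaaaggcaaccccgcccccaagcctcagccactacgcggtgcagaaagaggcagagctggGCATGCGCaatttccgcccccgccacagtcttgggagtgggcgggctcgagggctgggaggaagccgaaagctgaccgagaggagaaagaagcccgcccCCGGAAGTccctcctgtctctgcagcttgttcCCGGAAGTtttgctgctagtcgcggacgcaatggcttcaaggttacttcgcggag
COX6A1, chr12:120437863-120438162, plus strand: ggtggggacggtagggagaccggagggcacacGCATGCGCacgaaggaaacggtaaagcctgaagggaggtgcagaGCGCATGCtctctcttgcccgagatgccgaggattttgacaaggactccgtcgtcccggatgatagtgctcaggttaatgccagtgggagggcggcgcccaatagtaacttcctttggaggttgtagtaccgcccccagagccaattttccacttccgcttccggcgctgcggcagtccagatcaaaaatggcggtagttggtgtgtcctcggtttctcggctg
NDUFA6, chr22:42090723-42091022, minus strand: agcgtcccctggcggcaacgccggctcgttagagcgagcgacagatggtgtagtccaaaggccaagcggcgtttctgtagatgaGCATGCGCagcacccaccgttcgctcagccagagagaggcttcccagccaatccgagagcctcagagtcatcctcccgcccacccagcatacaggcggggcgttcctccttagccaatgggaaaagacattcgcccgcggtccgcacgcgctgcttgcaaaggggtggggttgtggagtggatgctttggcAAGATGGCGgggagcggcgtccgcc
ATP5MK, chr10:103396426-103396725, minus strand: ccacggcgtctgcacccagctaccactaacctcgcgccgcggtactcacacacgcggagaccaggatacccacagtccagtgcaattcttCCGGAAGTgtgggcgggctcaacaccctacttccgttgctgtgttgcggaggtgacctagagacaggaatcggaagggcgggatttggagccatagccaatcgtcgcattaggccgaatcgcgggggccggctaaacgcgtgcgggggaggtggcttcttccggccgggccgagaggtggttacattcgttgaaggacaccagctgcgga
NDUFS1, chr2:206159395-206159694, minus strand: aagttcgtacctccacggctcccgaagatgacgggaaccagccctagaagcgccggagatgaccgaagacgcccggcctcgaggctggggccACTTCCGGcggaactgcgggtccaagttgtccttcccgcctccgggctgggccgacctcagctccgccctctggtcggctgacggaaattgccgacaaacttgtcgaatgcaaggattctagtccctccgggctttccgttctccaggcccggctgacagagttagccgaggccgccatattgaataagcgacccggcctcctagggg

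COX5B also carries ETS matches. COX5B and NDUFA6 rose by 1.38 (SE 0.09) and 1.40 (SE 0.07) in kd1 and by 0.33 (SE 0.09) and 0.66 (SE 0.07) in kd2. After the correction the kd1 values were 0.65 and 0.84, and the kd2 value of COX5B was 0.16, still called. The kd2 call of COX5B was lost with library totals alone (0.16), by the DESeq2 Wald test (0.33, adjusted p = 0.0598) and without the first control library (0.26), and its value was 0.17 without the first kd2 library. ATP5MK and NDUFS1 both hold an ETS match and moved in opposite directions before the GC and length correction. After it NDUFS1 stood at 0.28 in kd1 and 0.00 in kd2. The part of the motif in either gene was not tested.

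Genes around the respiratory chain were counted in the same way, beside the 38.2% of all genes called higher and 39.8% lower in kd1 and the 36.5% and 36.9% in kd2. With library totals alone these shares were 27.8% and 51.0% in kd1 and 30.1% and 43.7% in kd2. After the correction they were 39.4% and 37.9% in kd1 and 38.5% and 36.2% in kd2. Of 49 assembly factors, which insert cofactors and join subunits, 29 were called higher and 12 lower in kd1 (24 and 20 with library totals alone), and 25 and 10 in kd2 (22 and 14). Mitochondrial ribosomal proteins, which make the mitochondrially encoded subunits, gave 58 higher and 10 lower of 77 in kd1 (42 and 20 after the correction) and 43 and 12 in kd2 (39 and 19 with library totals alone). Citric acid cycle enzymes gave 11 higher and 3 lower of 18 in kd1 (7 and 9 with library totals alone) and 9 and 6 in kd2. Electron carriers and inner membrane carriers gave 9 higher and 11 lower of 23 in kd1 (6 and 12 with library totals alone), with the share called higher close to that of all genes, and 6 and 12 in kd2. The median log2 fold changes in the 2 knockdowns were 0.58 and 0.26 for assembly factors, 0.76 and 0.36 for mitochondrial ribosomal proteins, 0.28 and 0.20 for citric acid cycle enzymes, and 0.13 and -0.27 for carriers. With library totals alone they were 0.23 and 0.09 for assembly factors, 0.40 and 0.19 for ribosomal proteins, -0.07 and 0.03 for citric acid cycle enzymes, and -0.23 and -0.44 for carriers. After the correction they were 0.26 and 0.16, 0.26 and 0.20, 0.25 and 0.30, and -0.33 and -0.28 in the same order.

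Genes that act on mitochondrial DNA and RNA, and regulators of respiratory genes, were called in both directions. Their counts stand beside the shares of all genes under the same scaling. With library totals alone those shares were 27.8% higher and 51.0% lower in kd1 and 30.1% and 43.7% in kd2. They were 39.4% and 37.9% in kd1 after the correction. Of 19 genes for mitochondrial DNA maintenance and transcription, 6 were called higher and 10 lower in kd1 (4 and 14 with library totals alone, 3 and 12 after the correction), and 7 and 10 in kd2, with medians of -0.40 and -0.23. Of 20 genes for mitochondrial RNA processing and stability, 9 were higher and 10 lower in kd1 (6 and 12 with library totals alone), and 9 and 5 in kd2 (6 and 9), with medians of -0.08 and 0.06 that depended on the scaling (-0.44 and -0.11 with library totals alone). Of 17 transcriptional regulators of respiratory genes, 5 were higher and 9 lower in kd1 (2 and 11 with library totals alone), and 8 and 6 in kd2, with medians of -0.36 and 0.12 that changed sign to 0.04 after the correction in the first and to -0.05 with library totals alone in the second. Between the knockdowns, 14 of these regulators were called higher in kd2 and the other 3 were not called, with a median of 0.51, beside 34.9% of all genes called higher. After the correction 10 of them were called higher, with a median of 0.37.

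Among the 8 antisense, divergent and readthrough symbols kept apart from the subunits, 5 were tested, and the only call against control was in kd2. There NDUFA6-DT was called lower (-1.02, SE 0.35, edgeR adjusted p = 0.0172), at 1.68 and 2.03 CPM in control cells and 1.04 and 0.788 in kd2.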

How the data were processed

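The 6 RNA-seq libraries, 2 each of control, kd1 and kd2, were grouped by their labels. The submitters' processing notes and the methods name FastQC 0.11.9, STAR 2.7.9a with hg38, and HTSeq 0.13.5. The authors deposited an unnormalized table of read counts for each gene symbol. Strand use, annotation and the handling of overlaps are not given in the sources used here, nor is whether poly(A) isolation or rRNA removal was used.

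From these counts, 16510 genes passing filterByExpr entered edgeR 4.0.16 under R 4.3.3 (quasi-likelihood F test after TMM scaling, all 6 libraries, 3 residual degrees of freedom), with Benjamini-Hochberg adjustment and calls at an adjusted p under 0.05. SE is the log2 fold change over the root of F. Totals of 26844128 to 38193748 counts set the precision of low values. Of the 35322 symbols, 32865 matched GENCODE 44, whose canonical transcripts gave lengths and GC content. Functions were tested on simulated counts. Alternatives were DESeq2 size factors, the DESeq2 1.42.0 Wald test, other filters, library totals alone, mitochondrial genes left out of scaling, a GC content and length correction (lowess span 0.3), a replicate block, only the groups compared, and each library left out.

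Named genes were the mitochondrial genes, core and catalytic subunits, isoform pairs, the 2 largest rises and falls per complex among those with the same call in each knockdown, and the extremes of each comparison. Of these, 1 gene is not reported here. Promoter genes and NDUFA6-DT were chosen after their values were seen. Members, lists and tests were chosen with earlier results of these data known. Python 3.11.15 with matplotlib 3.10.9 drew the figures.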

Additional observations from a re-analysis of the deposited data

Results flagged for a closer look

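For 11 of the subunits reported here the knockdowns were called on opposite sides of control and the direct comparison of kd2 with kd1 was called as well by edgeR. The 7 nuclear genes had log2 fold changes between the knockdowns of -1.03 for ATP5F1C, -1.33 for ATP5MC2, -0.98 for CYC1, -1.25 for NDUFA4L2, -1.14 for NDUFB10, -1.23 for NDUFB9 and -1.11 for NDUFV1. The 4 mitochondrial genes had -1.30 for ATP6, -1.18 for COX2, -1.18 for COX3 and -1.30 for ND3. All 11 were higher than control in kd1 and lower in kd2. After the GC content and length correction, ATP5MC2, CYC1, NDUFA4L2 and COX3 were called lower in kd1 as well. ATP6 stood at -0.04 and ATP5F1C at 0.07 there, neither being called. With library totals alone CYC1 (0.06) and COX3 (0.09) were not called in kd1, and NDUFA4L2 stood at -0.07. The kd2 calls of COX2 and ND3 were lost without the second control library (-0.14 for each). For NDUFB9 and NDUFB10 the alternatives are not given here.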

How the results depend on the processing

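Against control, the GC content and length correction gave 13 nuclear subunits lower, a nuclear median of 0.80, 5 mitochondrial subunits lower and a mitochondrial median of 0.08 in kd1, and a nuclear median of 0.24, 0 mitochondrial subunits higher by edgeR (also 0 at an unadjusted p under 0.05, and 2 by DESeq2) and a mitochondrial median of -0.32 in kd2. Library totals alone gave 9 nuclear lower, medians of 0.92 and 0.36 in kd1, and medians of 0.21 and -0.37 with 0 mitochondrial higher by edgeR, adjusted or not, in kd2. At least 10 counts in every library gave mitochondrial medians of 0.67 and -0.24, and 1 mitochondrial gene higher in kd2, as did only the groups compared. Between the knockdowns, the nuclear genes called higher numbered 1 by the DESeq2 Wald test, 9 after the correction, 7 with library totals alone and 2 with only the groups compared. The medians there were -0.48 and -0.45 after the correction and -0.77 and -0.58 with library totals alone. The causes were not tested.

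Without 1 library, the kd2 values against control ran from 0.22 to 0.54 for the nuclear median, -0.26 to -0.14 for the mitochondrial median and 1 to 4 for mitochondrial genes higher (4 without the second kd2 library, 1 without either control library). Between the knockdowns the nuclear median ran from -1.09 to -0.79, the mitochondrial median from -0.79 to -0.74, and nuclear genes higher from 1 to 3. ND6 in kd2 turned to 0.13 without the second kd2 library and was -0.17 without the first.

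Reversed by the correction were ATP6 (-0.04), COX3 (-0.18), NDUFS1 (0.28), NDUFS7 (-0.54), SDHB (-0.23), CYC1 (-0.45), NDUFA4L2 (-0.72) and ATP5MC2 (-0.24) in kd1, ND2 (-0.15), ND4 (-0.01), NDUFS1 (0.00) and UQCRC2 (-0.02) in kd2, and NDUFS1 (-0.27), NDUFS7 (0.74), SDHB (0.37), ATP5F1B (0.11) and COX7A2 (0.06) between the knockdowns. Reversed with library totals alone were SDHB (-0.01) and NDUFA4L2 (-0.07) in kd1, ND4 (-0.04) and UQCRC2 (-0.04) in kd2, and ATP5F1B (0.11) between the knockdowns. Over the named genes and all alternatives, 2204 values kept direction and side of the threshold, 57 lost the call, 47 gained one and 23 reversed.

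Equal replicate numbers did not pair the libraries, with correlations of deviations from the group means of 0.0062, -0.0264 and -0.044. With a replicate block, 73 nuclear subunits were higher in kd1 and 49 in kd2, and 1 mitochondrial subunit was higher in kd2, with the kd2 calls of ND4 and UQCRC2 lost (edgeR adjusted p = 0.0806 and 0.0739). Low counts limit the precision of COX7A1, COX6B2, ATP5ME, NDUFV2, NDUFA7 and SDHA, among others, and COX4I2, COX6A2, COX7B2, COX8C and ATP5MGL had too few counts to be tested.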
